A study of Mus musculus with 19 samples.

Results

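The SLC25 family holds the carriers that move metabolites, nucleotides and cofactors across the inner membrane of mitochondria, and its messenger RNAs were followed here in mouse small intestinal crypts. Membership was set by gene symbol and used no measured value. They are the protein-coding genes of the mouse build GRCm38 whose symbol in the GENCODE M21 annotation opens with Slc25a and a number, together with Ucp1, Ucp2 and Ucp3, and they came to 50 of the 55487 genes listed in the files. Of these 50 members, 42 had enough counts to be tested and 8 did not.

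Carriers of this family are small proteins made of a repeated membrane module that spans the inner membrane, and most exchange 1 substrate for another. The outer membrane is open to small molecules, so the set of carriers in the inner membrane decides which fuels, cofactors and nucleotides pass between cytosol and matrix. They are made in the cytosol and inserted by a dedicated import route. In the intestinal epithelium, mitochondria burn glutamine, glucose, ketone bodies and fatty acids, and enterocytes are a main site of citrulline synthesis, which uses the ornithine carrier. Fasting is known as a state in which tissues turn to fatty acid oxidation, for which long-chain acyl groups must enter the matrix bound to carnitine.

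RNA was sequenced from crypts of 19 C57BL/6 mice, 1 library per mouse. Mice with the neurotensin gene (NT+/+) and mice lacking it in the whole body (NT-/-) were either fed ad libitum, on standard chow, or fasted for 48 hours. The groups were NT+/+ ad libitum (n = 5), NT-/- ad libitum (n = 4), NT+/+ fasted (n = 5) and NT-/- fasted (n = 5). Neurotensin is a gut peptide released when nutrients are eaten, and the design asks how fasting and its loss change crypts. Fed controls were littermates matched for sex and age, the mice were of both sexes and 10 to 16 weeks old, and the crypts were released with EDTA from the upper 2 of 3 parts of the small intestine. Crypts are pits of the epithelium that hold stem cells, dividing progenitors, Paneth cells and young secretory cells, so each library is a mixture of cell types.

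Totals ran from 9059418 to 35068669 counts per mouse, and NT-/- fasted replicates 2 and 4 were the shallowest. Nts, the gene removed in NT-/- mice, was between 4.98 and 8.59 counts scaled to the library size (CPM) in the NT+/+ mice and between 0.144 and 0.793 CPM in the NT-/- mice. NT+/+ fasted replicate 5 is NT+/+ by its title and NT-/- by its genotype label. It was grouped by its title. The 5 mice grouped as NT+/+ fasted, this mouse included, had 4.98 to 5.71 CPM of Nts. Its value thus lay over those of all mice grouped as NT-/-, which had at most 0.793 CPM. Epithelial genes were high (the sum of Epcam, Krt8, Cdh1 and Vil1 was 4527 to 6016 CPM over all mice). The sum of 4 adipocyte genes was at most 0.320 CPM. The 3 skeletal muscle genes Ckm, Acta1 and Myh4 summed to 0.898 to 3.58 CPM, with Myh4 at 0 in every mouse. Immune genes summed to 48.8 to 139.6 CPM, and genes of stroma, vessel and muscle to 7.48 to 13.6 CPM.

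3 carriers made up most of the family's messenger RNA. On the deposited TPM values, which are scaled by gene length and so allow levels of different genes to be compared, Slc25a5 was highest in NT+/+ ad libitum mice at 608 ± 47.7 TPM (SD, n = 5). Slc25a5 is the main ADP/ATP translocase of dividing cells, which exports ATP made in the matrix, and it held 29.2% of the family's summed TPM. The phosphate carrier Slc25a3 followed at 431 ± 27.9 TPM, and Ucp2, an uncoupling protein relative that exports carbon acids, at 284.8 ± 8.92 TPM. Together these carriers held 63.6% of the family's TPM. Slc25a39, a glutathione carrier, was the next at 91.4 ± 3.27 TPM, followed by the citrate carrier Slc25a1 at 63.1 ± 2.04 TPM.

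The first 4 members in this order did not overlap the member after them in any of the 5 mice of this group. From Slc25a1 downwards every member overlapped the next in order, starting with Slc25a15, Slc25a10 and Slc25a11, except that Slc25a33 (1.25 ± 0.154 TPM) lay apart from Slc25a18 (0.776 ± 0.195 TPM). The finer order is therefore not resolved.

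**Figure D1:**
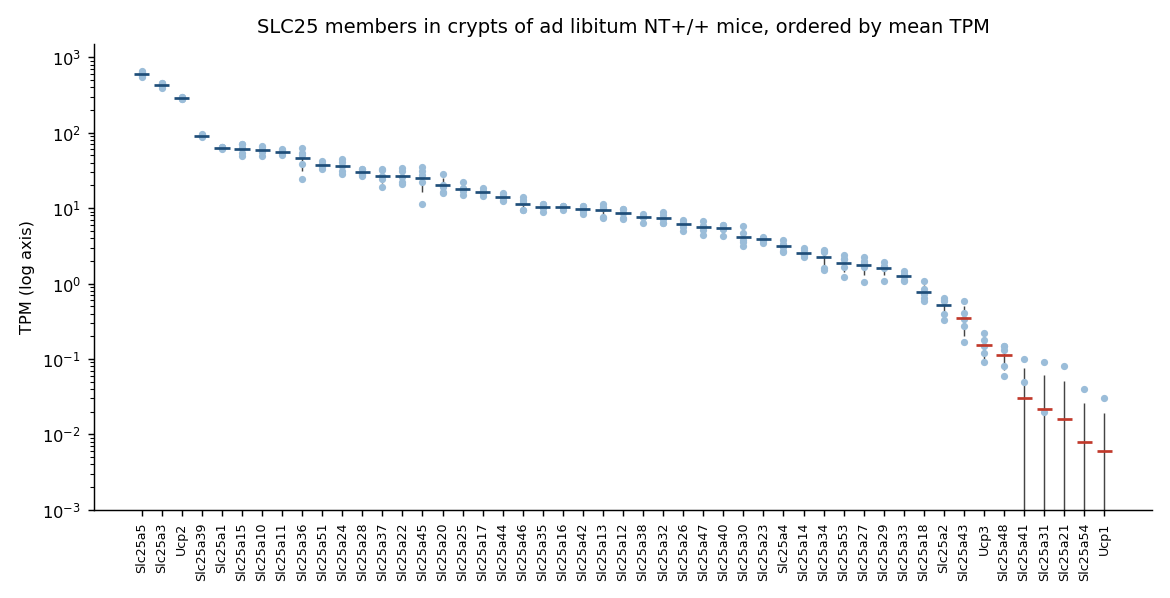
TPM (log axis) of the SLC25 members in NT+/+ ad libitum mice, 1 tested member not shown, ordered by their mean (dashes), with each of the 5 mice as a point and the SD as a vertical line. Values of 0 cannot be drawn on the log axis. Red dashes are the 8 members with too few counts to be tested, all at the low end, and Slc25a5 at 608 TPM is at the high end.

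8 members were at the edge of detection. Summed over all 19 mice, the rounded counts were 1 for Slc25a54, 3 for Ucp1, 6 for Slc25a41, 8 for Slc25a31, 16 for Slc25a21, 61 for Slc25a48, 104 for Ucp3 and 142 for Slc25a43. Ucp1 is the heat-producing uncoupling protein of brown fat, Ucp3 is a muscle form and Slc25a31 is a translocase of male germ cells. At these counts a change would not have been detectable for most of them. Slc25a48 averaged 0.324 ± 0.116 CPM in NT+/+ ad libitum mice and 0.0602 ± 0.0488 CPM in NT+/+ fasted mice, and it was called lower only when no filter on low counts was used (log2 fold change −2.33, SE 0.67, adjusted p = 0.0258, edgeR's quasi-likelihood test).

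5 pairs of members lie side by side in the genome with no other protein-coding gene starting between them, and in 4 of these pairs only 1 gene was tested. Ucp2 and Ucp3 lie on chromosome 7 with 6904 bases between them, and in NT+/+ ad libitum mice Ucp2 had 285 ± 8.92 TPM against 0.152 ± 0.0507 TPM for Ucp3. Slc25a5 and Slc25a43 lie on chromosome X with 18448 bases between them, at 608 ± 47.7 and 0.354 ± 0.154 TPM. Slc25a24 and Slc25a54 on chromosome 3 (gap 6461 bases) had 36.2 ± 6.87 and 0.008 ± 0.0179 TPM, and Slc25a23 and Slc25a41 on chromosome 17 (gap 2056 bases) had 3.85 ± 0.287 and 0.03 ± 0.0447 TPM. In each of these pairs 1 gene was well detected and its neighbour was close to 0. In the remaining pair, Slc25a29 and Slc25a47 on chromosome 12 lie on opposite strands with 162 bases between the genes, at 1.60 ± 0.311 and 5.57 ± 0.896 TPM, and both were tested.

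Fasting raised more carriers than it lowered in both genotypes. In NT+/+ mice 15 of the 42 members tested rose, 2 fell and 25 were not called, which is 40.5% called, beside 21.6% of all 17875 genes tested (11.2% higher and 10.4% lower). In NT-/- mice 17 rose, 3 fell and 22 were not called, which is 47.6% called, beside 25.2% of all genes (12.5% higher and 12.6% lower). Calls rest on the quasi-likelihood test of edgeR at an adjusted p under 0.05, fitted on all genes and all 19 mice, and p-values quoted for single genes are from that test. At an unadjusted p under 0.05, 21 members were higher and 4 lower in NT+/+ mice, beside 34.1% of all genes, and 21 were higher and 5 lower in NT-/- mice, beside 36.5%. The median log2 fold change of the tested members was 0.24 in NT+/+ mice, beside −0.01 for all genes, and 0.24 in NT-/- mice, beside −0.02.

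These comparisons use separate mice. 12 members rose in both genotypes, Slc25a13, Slc25a16, Slc25a20, Slc25a23, Slc25a24, Slc25a33, Slc25a34, Slc25a36, Slc25a42, Slc25a44, Slc25a51 and Ucp2, and Slc25a26 and Slc25a35 fell in both. Slc25a4, Slc25a12 and Slc25a37 were called only in NT+/+ mice, and Slc25a1, Slc25a5, Slc25a15, Slc25a25, Slc25a30 and Slc25a53 only in NT-/- mice, but the fasting effects did not differ between genotypes at an adjusted p under 0.05 for any member. With NT+/+ fasted replicate 5 regrouped by its genotype label, 16 members rose and 3 fell in NT+/+ mice, and 16 rose and 3 fell in NT-/- mice. Without that mouse the counts were 16 and 3 in NT+/+ mice and 18 and 3 in NT-/- mice. With a block for the title's replicate number, 19 rose and 4 fell in each genotype, beside 28.0% of all genes called in NT+/+ and 31.6% in NT-/- mice in that fit. A block for the number in the file names, which differs from the title's for 2 of the NT-/- ad libitum mice, gave 20 higher and 3 lower in NT+/+ mice, beside 30.7% of all genes, and 17 higher and 5 lower in NT-/- mice, beside 31.7% of all genes. The share called was thus larger over all genes too. Members gained in NT+/+ mice with the block of the file numbers were Slc25a1, Slc25a10, Slc25a15, Slc25a28, Slc25a39 and Slc25a40. Unless a block is named, the calls below are from the fit without a block. Without NT-/- ad libitum replicate 4, 5 members fell in NT-/- mice.

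**Figure D2:**
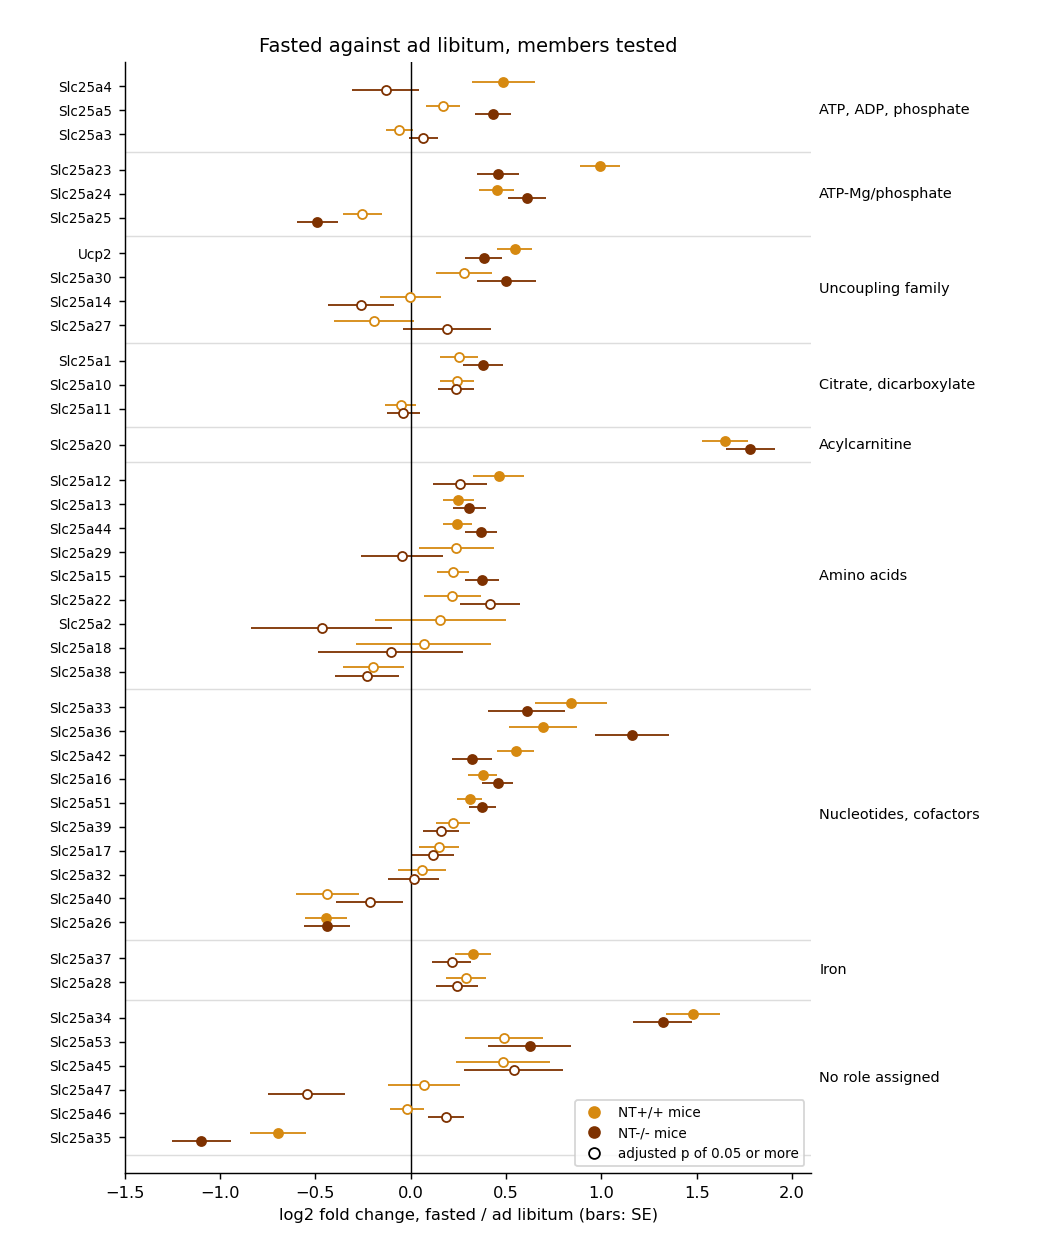
Log2 fold change of fasted against ad libitum mice for the members tested, 1 of the 42 not shown, in NT+/+ (orange) and NT-/- (brown) mice, grouped by what the carriers transport. Horizontal lines are SEs and filled points have an adjusted p under 0.05. Slc25a20 lies farthest to the right at 1.65 and 1.78, and Slc25a35 farthest to the left at −0.70 and −1.10, NT+/+ and NT-/- mice in turn.

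Genes of mature villus cells moved with fasting in the same libraries. Over all genes tested, 11.2% rose and 10.4% fell in NT+/+ mice, and 12.5% rose and 12.6% fell in NT-/- mice. Of 8 villus enterocyte genes, 6 rose in NT+/+ mice and 8 rose in NT-/- mice, among them the fatty acid binding proteins Fabp1 (log2 fold change 2.09, adjusted p = 3.8e-06 in NT+/+ and 2.05, adjusted p = 9.4e-06 in NT-/- mice) and Fabp2 (1.43, adjusted p = 0.000298 and 1.80, adjusted p = 6.02e-05). Their summed level ran from 3233 to 7061 CPM in NT+/+ ad libitum mice and from 6923 to 14670 CPM in NT+/+ fasted mice. In NT-/- mice it ran from 5152 to 7771 CPM ad libitum and from 12761 to 17224 CPM fasted. Of 4 stem cell genes, 0 rose and 1 fell in NT+/+ mice and 0 rose and 2 fell in NT-/- mice. The list holds Lgr5, Ascl2, Olfm4 and Smoc2, and Lgr5 and Ascl2 were not called in either genotype. Log2 fold changes were above 0 for 2 of these genes in NT+/+ and 1 in NT-/- mice. Olfm4 fell in both (−0.63, adjusted p = 0.0322 and −0.92, adjusted p = 0.00409) and Smoc2 in NT-/- mice (−0.49, adjusted p = 0.00906), while Ascl2 was at 0.63, adjusted p = 0.114 and 0.12, adjusted p = 0.823. Of 4 goblet cell genes, 0 rose and 1 fell in NT+/+ mice and 0 rose and 2 fell in NT-/- mice. Clca1 fell in both (−1.51, adjusted p = 0.0093 and −2.22, adjusted p = 0.000674) and Muc2 in NT-/- mice (−0.83, adjusted p = 0.00309), while Fcgbp was at 0.17, adjusted p = 0.296 and 0.16, adjusted p = 0.338. In such bulk samples a change in the share of a cell type and a change of RNA per cell cannot be told apart, the marker genes named here were chosen after their values were seen, and the part of these cell types in the carrier results below was not tested.

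All family members summed gave 2967 ± 42.8 CPM (SD, n = 5) in NT+/+ ad libitum mice and 3558 ± 150.3 CPM (n = 5) in NT+/+ fasted mice, and no fasted NT+/+ mouse (3417 to 3795 CPM) overlapped the ad libitum mice (2904 to 3024 CPM). The sum in NT-/- mice was 3075 ± 203 CPM ad libitum (n = 4) and 3914 ± 97.8 CPM fasted (n = 5). Of the rise of 591 CPM in NT+/+ mice, Ucp2 gave 28.6%, Slc25a5 12.9%, Slc25a20 10.9% and Slc25a36 10.6%. Of the rise of 839 CPM in NT-/- mice, Slc25a5 gave 26.5%, Ucp2 14.1%, Slc25a36 13.9% and Slc25a20 8.33%. The same 4 members thus led the sum in both genotypes, although Slc25a5 itself was not called in NT+/+ mice.

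**Figure D3:**
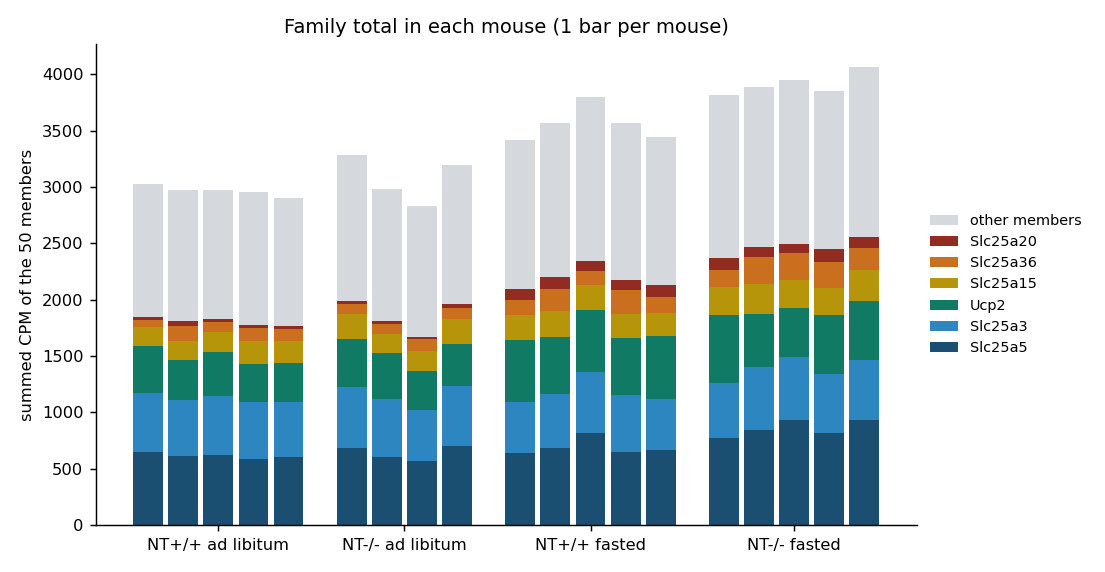
Summed CPM of the 50 members in each of the 19 mice, 1 bar per mouse, with the share of 6 members in colour. Fasted mice of both genotypes have taller bars than ad libitum mice, from 3417 to 4067 CPM against 2836 to 3281 CPM.

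Promoter letters are shown for the 3 members that rose most on average over both genotypes (Slc25a20, Slc25a34 and Slc25a36) and for Slc25a25, which fell and whose promoter shares a motif with that of Slc25a36. Sequences are from RefSeq on GRCm38.p6 and run from 250 bases before to 50 bases after the annotated start, 5′ to 3′ on the gene's strand, and capitals mark any of the motifs searched.
Slc25a20 promoter, chr9:108661886-108662185, plus strand: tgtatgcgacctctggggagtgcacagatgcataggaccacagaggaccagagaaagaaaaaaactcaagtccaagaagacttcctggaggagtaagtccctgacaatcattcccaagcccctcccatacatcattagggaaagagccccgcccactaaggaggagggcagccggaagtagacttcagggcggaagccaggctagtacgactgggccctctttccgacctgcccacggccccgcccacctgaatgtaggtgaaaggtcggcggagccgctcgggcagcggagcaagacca
Slc25a34 promoter, chr4:141623785-141624084, minus strand: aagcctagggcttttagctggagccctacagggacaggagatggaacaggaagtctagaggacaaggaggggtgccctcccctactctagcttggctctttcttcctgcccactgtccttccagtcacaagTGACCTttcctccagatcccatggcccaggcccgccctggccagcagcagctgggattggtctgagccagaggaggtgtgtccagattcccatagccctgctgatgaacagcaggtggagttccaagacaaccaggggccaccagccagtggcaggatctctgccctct
Slc25a36 promoter, chr9:97110992-97111291, minus strand: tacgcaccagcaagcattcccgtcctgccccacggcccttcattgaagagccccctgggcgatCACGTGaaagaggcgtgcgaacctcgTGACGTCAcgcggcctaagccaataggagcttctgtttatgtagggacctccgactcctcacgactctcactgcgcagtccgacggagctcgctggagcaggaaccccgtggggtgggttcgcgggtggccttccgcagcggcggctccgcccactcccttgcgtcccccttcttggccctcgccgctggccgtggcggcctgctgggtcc
Slc25a25 promoter, chr2:32424017-32424316, minus strand: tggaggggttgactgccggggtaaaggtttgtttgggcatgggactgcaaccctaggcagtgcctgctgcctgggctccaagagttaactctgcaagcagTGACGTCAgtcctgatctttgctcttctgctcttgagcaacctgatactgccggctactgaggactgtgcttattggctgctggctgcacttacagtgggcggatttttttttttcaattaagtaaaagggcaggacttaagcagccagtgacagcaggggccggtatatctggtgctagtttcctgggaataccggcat

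The motifs were searched on both strands in the 49 RefSeq promoters found for 39 of the 50 members, beside all 32851 promoters of the table. The cyclic AMP response element TGACGTCA was in 2 member promoters, those of Slc25a36 (starting 161 bases before the start site) and Slc25a25 (150 bases before it, in 1 of 3 promoters of the gene), which is 4.08% beside 1.79% of all promoters. Fasting raised Slc25a36 in both genotypes and lowered Slc25a25 in NT-/- mice. The E-box CACGTG was in 8 promoters of Slc25a1, Slc25a13, Slc25a14, Slc25a15, Slc25a31, Slc25a33 and Slc25a36 (16.3% beside 7.15%). For Slc25a14 the same site, 184 and 54 bases before 2 start sites, was counted in 2 overlapping promoters. The nuclear receptor hexamer AGGTCA was in the promoters of Slc25a34, Slc25a39, Slc25a45, Slc25a47, Ucp1 and Ucp3 (12.2% beside 16.3%), and in Slc25a34 it lay on the opposite strand, 119 bases before the start. The direct repeat of this hexamer with a spacer of 1 base (DR1, 0.0396% of all promoters), the longer form TCAAGGTCA (0.423%), the amino acid response letters TGATGCAA (0.895%) and the forkhead letters TGTTTAC (3.65%) were in 0 member promoters. DR1 and TCAAGGTCA both contain AGGTCA. At such low shares, their absence from 49 promoters says little. Only exact letters were searched, so sites that differ by a base were not found.

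Slc25a20, the carnitine-acylcarnitine carrier that brings long-chain acyl groups into the matrix for oxidation, rose most (ENSMUSG00000032602; chr9:108662088-108684641, plus strand). It was at 28.5, 38.8, 26.8, 29.2 and 26.8 CPM in the NT+/+ ad libitum mice and at 96.2, 101, 80.5, 85.5 and 108 CPM in the NT+/+ fasted mice. The NT-/- mice had 32.4, 26.1, 24.2 and 31.7 CPM ad libitum and 103, 91.9, 83.2, 116 and 98.3 CPM fasted. Every fasted mouse lay far over the highest ad libitum mouse, and the genotypes overlapped in both diets. Fasting raised Slc25a20 3.13-fold in NT+/+ mice (log2 fold change 1.65, SE 0.12, adjusted p = 1.67e-08) and 3.44-fold in NT-/- mice (1.78, SE 0.13, adjusted p = 1.67e-08). The difference between these effects was 0.13 on the log2 scale (SE 0.17, unadjusted p = 0.446). Of its windows of 100 bases, 2.36% occur in other genes, which leaves most of the transcript unique.

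Of 6 other genes of the carnitine route, 5 were tested, of which 5 rose in NT+/+ mice and 4 rose in NT-/- mice. Over all genes 11.2% and 12.5% rose. Slc22a5, which takes carnitine into the cell, went from 33.6 ± 2.70 to 48.1 ± 4.95 CPM in NT+/+ mice (log2 fold change 0.52, adjusted p = 0.000194). Cpt1a, which loads acyl groups onto carnitine at the outer membrane, went from 230.3 ± 47.3 to 404 ± 66.6 CPM (0.81, adjusted p = 0.000368), and Cpt2, which unloads them in the matrix, from 67.97 ± 5.09 to 94.6 ± 6.98 CPM (0.48, adjusted p = 0.000433). The same genes in NT-/- mice changed by 0.69, adjusted p = 1.61e-05, by 0.86, adjusted p = 0.00032 and by 0.58, adjusted p = 0.000105 on the log2 scale. Each of these log2 differences was smaller than that of Slc25a20.

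Of the 3 tested carriers of ATP, ADP and phosphate, 1 rose in each genotype, Slc25a4 in NT+/+ and Slc25a5 in NT-/- mice. The share called was 33.3% in each, beside 21.6% of all genes in NT+/+ and 25.2% in NT-/- mice. Slc25a5 was at 649.9, 616, 618, 589 and 606 CPM in NT+/+ ad libitum mice and at 641, 686, 819.8, 650.3 and 664 CPM in NT+/+ fasted mice. Among NT-/- mice it was at 679.7, 602, 563 and 704 CPM ad libitum and at 771, 846, 932, 813 and 934 CPM fasted. All 5 fasted NT-/- mice lay over every ad libitum mouse, whereas the NT+/+ groups overlapped and fasted replicate 3 stood far over the rest of its group. It rose 1.35-fold in NT-/- mice (log2 fold change 0.43, SE 0.09, adjusted p = 0.00205) and had a log2 fold change of 0.17 in NT+/+ mice that was not called (SE 0.09, adjusted p = 0.179). The difference between the effects was 0.26 (unadjusted p = 0.0523).

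Slc25a4, the translocase of heart and muscle, shares 77.8% of its aligned coding bases with Slc25a5 and was far lower, at 3.12 ± 0.495 against 608 ± 47.7 TPM in NT+/+ ad libitum mice. It averaged 4.81 ± 0.938 CPM in NT+/+ ad libitum, 6.72 ± 1.61 in NT-/- ad libitum, 6.74 ± 1.04 in NT+/+ fasted and 6.10 ± 0.854 CPM in NT-/- fasted mice. It was called higher in fasted NT+/+ mice (log2 fold change 0.49, SE 0.17, adjusted p = 0.0419) and not in NT-/- mice (−0.13, SE 0.17, adjusted p = 0.636). The first call is weak, since it was lost when any of NT+/+ ad libitum replicates 2, 3, 4 and 5, NT-/- ad libitum replicate 1 or NT+/+ fasted replicates 2, 3 and 5 was left out (adjusted p = 0.0502 to 0.107), and with NT+/+ fasted replicate 5 regrouped (adjusted p = 0.122). The phosphate carrier Slc25a3 was not called in either genotype (log2 fold change −0.06, adjusted p = 0.586, and 0.07, adjusted p = 0.576). No window of 100 bases is shared between any members, but 8.33% of those of Slc25a5 occur in 4 processed pseudogenes, so its reads can be split by the counting.

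The ATP-Mg/phosphate carriers set the matrix pool of adenine nucleotides, and the 3 that were tested are opened by calcium. Among these 3, Slc25a23 and Slc25a24 rose in both genotypes and Slc25a25 fell in NT-/- mice. Slc25a23 was at 11.2, 9.96, 11.9, 9.29 and 9.42 CPM in NT+/+ ad libitum mice and at 19.9, 20.8, 19.1, 21.4 and 21.8 CPM after fasting. NT-/- mice had 12.9, 14.9, 15.4 and 12.8 CPM ad libitum and 24.5, 17.8, 17.6, 18.5 and 17.6 CPM fasted. The groups did not overlap between diets in either genotype, and the 4 NT-/- ad libitum mice all lay over the 5 NT+/+ ad libitum mice. Slc25a23 rose 1.99-fold in NT+/+ mice (log2 fold change 0.99, SE 0.10, adjusted p = 2.18e-06) and 1.37-fold in NT-/- mice (0.46, SE 0.11, adjusted p = 0.00458). The difference between these effects was −0.53 (SE 0.15), the smallest p of any member for this comparison, unadjusted p = 0.00211, but adjusted over all genes it was 1. Its exons overlap the antisense gene Gm17168, and without a stated strand setting their reads cannot be told apart.

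Slc25a24 had 104, 122, 90.9, 101 and 111 CPM in NT+/+ ad libitum mice and 139.8, 156, 144, 136 and 147 CPM in NT+/+ fasted mice. Its NT-/- values were 107, 102, 96.1 and 135 CPM ad libitum and 167, 164, 164, 149 and 196 CPM fasted. No fasted mouse fell within the ad libitum range of its genotype. The rise was 1.37-fold in NT+/+ (log2 fold change 0.45, SE 0.09, adjusted p = 0.00193) and 1.53-fold in NT-/- mice (0.61, SE 0.10, adjusted p = 0.000205). Slc25a25 averaged 41.04 ± 6.11 CPM ad libitum and 34.4 ± 3.74 CPM fasted in NT+/+ mice, a log2 fold change of −0.25 that was not called (adjusted p = 0.0811). It fell in NT-/- mice from 43.6 ± 2.12 to 30.9 ± 3.85 CPM (log2 fold change −0.49, SE 0.11, adjusted p = 0.00232), with no overlap between the diets. Exons of Slc25a25 overlap those of Naif1 on the opposite strand. Slc25a41 was not tested.

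Ucp2 was by far the highest uncoupling protein gene by TPM in NT+/+ ad libitum mice, and it rose with fasting in both genotypes. NT+/+ mice had 421, 349, 388, 335 and 343 CPM ad libitum and 557, 511, 549.6, 503 and 559 CPM fasted. NT-/- mice had 431, 412, 346 and 372 CPM ad libitum and 596, 466, 436, 523 and 524 CPM fasted. Fed and fasted mice did not overlap within a genotype, and the nearest were NT-/- ad libitum replicate 1 and NT-/- fasted replicate 3. The rise was 1.46-fold in NT+/+ mice (log2 fold change 0.55, SE 0.09, adjusted p = 0.000298) and 1.30-fold in NT-/- mice (0.38, SE 0.10, adjusted p = 0.00659). Its exons overlap those of Dnajb13 on the opposite strand. Slc25a30, a relative first described in kidney, averaged 8.05 ± 1.34 and 7.18 ± 0.749 CPM ad libitum and 9.78 ± 1.01 and 10.2 ± 2.35 CPM fasted in NT+/+ and NT-/- mice. It was called in NT-/- and not in NT+/+ mice (log2 fold change 0.50, SE 0.16, adjusted p = 0.0234, against 0.28, SE 0.15, adjusted p = 0.184). That call was lost without NT-/- ad libitum replicate 1 or 3 or NT-/- fasted replicate 4 (adjusted p = 0.0615 to 0.0739). The brain-rich relatives Slc25a14 and Slc25a27 were low (at most 3.38 CPM on average in any group) and were not called in either genotype.

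Of the 3 citrate and dicarboxylate carriers tested, 0 were called in NT+/+ mice and 1, Slc25a1, rose in NT-/- mice. The shares called were 0.0% and 33.3%, beside 21.6% and 25.2% of all genes. Slc25a1, which exports citrate for fat synthesis, averaged 68.5 ± 6.01 CPM ad libitum and 81.5 ± 5.64 CPM fasted in NT+/+ mice without overlap, and its log2 fold change of 0.25 was not called (adjusted p = 0.0738, or 0.0471 with the replicate block). It rose in NT-/- mice from 67.97 ± 8.83 to 88.4 ± 13.2 CPM (log2 fold change 0.38, SE 0.10, adjusted p = 0.0114), a call lost without NT-/- ad libitum replicate 3 (adjusted p = 0.0553). The dicarboxylate carrier Slc25a10 had log2 fold changes of 0.24 and 0.24 (adjusted p = 0.0615 and 0.073), and with the block it was called in NT+/+ mice (adjusted p = 0.0342). The oxoglutarate-malate carrier Slc25a11 was at −0.05 and −0.04 and was not called. Slc25a21, the oxoadipate carrier, was not tested.

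Enzymes that make or use cytosolic citrate went both ways. Of 8 genes on the citrate list, 1 rose and 2 fell in NT+/+ mice, and 1 rose and 3 fell in NT-/- mice. In NT+/+ mice 6 of the 8 were called with the replicate block, and 1 was called without NT+/+ ad libitum replicate 3 or NT+/+ fasted replicate 2 or 4. Idh1, the cytosolic isocitrate dehydrogenase, rose (0.61, adjusted p = 5.58e-05 in NT+/+ and 0.84, adjusted p = 3.15e-06 in NT-/- mice, log2 scale). Fasn, the fatty acid synthase, fell (−0.43, adjusted p = 0.0172 and −0.83, adjusted p = 0.000123), and so did Acly, which splits citrate (−0.34, adjusted p = 0.0494 and −0.48, adjusted p = 0.00948). Among 6 enzymes of the malate-aspartate and glycerol phosphate shuttles, 1 rose in NT+/+ mice (3 were called with the replicate block) and 2 rose in NT-/- mice. Without the block these are 16.7% and 33.3% called, beside 21.6% of all genes in NT+/+ and 25.2% in NT-/- mice. Gpd1, the cytosolic glycerol phosphate dehydrogenase, rose (0.80, adjusted p = 5.22e-05 and 0.94, adjusted p = 1.79e-05), Gpd2, its mitochondrial partner, was at −0.31, adjusted p = 0.0534 and −0.16, adjusted p = 0.344, and the aspartate aminotransferase Got2 was at 0.20, adjusted p = 0.103 and 0.34, adjusted p = 0.00992.

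Of 9 amino acid carriers, all tested, 3 rose and 0 fell in each genotype. That is 33.3% called, beside 21.6% of all genes in NT+/+ and 25.2% in NT-/- mice. Slc25a13, an aspartate-glutamate carrier of the malate-aspartate shuttle, rose in both, from 22.96 ± 1.504 to 27.3 ± 1.41 CPM in NT+/+ mice (log2 fold change 0.25, SE 0.08, adjusted p = 0.0315) and from 24.00 ± 2.71 to 29.6 ± 2.53 CPM in NT-/- mice (0.31, SE 0.09, adjusted p = 0.0125). Slc25a12, its relative with 71.3% coding identity, rose in NT+/+ mice from 17.5 ± 3.93 to 24.1 ± 2.52 CPM (log2 fold change 0.46, SE 0.13, adjusted p = 0.0176) and was not called in NT-/- mice (0.26, adjusted p = 0.195). Slc25a44, which carries branched-chain amino acids, rose from 42.9 ± 2.29 to 50.8 ± 3.90 CPM in NT+/+ mice (log2 fold change 0.24, SE 0.08, adjusted p = 0.0293) and from 44.7 ± 4.92 to 57.8 ± 5.01 CPM in NT-/- mice (0.37, SE 0.08, adjusted p = 0.00276). The NT+/+ calls of Slc25a13 and Slc25a44 are weak. That of Slc25a13 was lost without NT+/+ ad libitum replicate 1 or 3 or NT+/+ fasted replicate 2 (adjusted p = 0.0761 to 0.0945), and that of Slc25a44 without NT+/+ ad libitum replicate 2 or 3 or NT+/+ fasted replicate 1, 3 or 4 (adjusted p = 0.0531 to 0.0835). In NT-/- mice Slc25a13 lost its call without NT-/- ad libitum replicate 2 (adjusted p = 0.06).

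Slc25a15, the ornithine carrier of citrulline synthesis and the most abundant amino acid carrier by TPM, rose in NT-/- mice from 198 ± 28.9 to 257 ± 15.3 CPM (log2 fold change 0.37, SE 0.09, adjusted p = 0.00445). In NT+/+ mice it went from 187 ± 17.2 to 217 ± 8.75 CPM and was not called (0.22, adjusted p = 0.067, or 0.0495 with the block of the file numbers). Its closest relative Slc25a2, with 67.4% coding identity, was at 0.541 ± 0.148 CPM in NT+/+ ad libitum mice and was not called. The enzymes around it went both ways. Of 7 ornithine and citrulline enzymes, 1 rose and 1 fell in NT+/+ mice, and 1 rose and 2 fell in NT-/- mice (5 were called with the block of the file numbers). That is 28.6% and 42.9% called, beside 21.6% and 25.2% of all genes. Arg2, the mitochondrial arginase, rose (0.77, adjusted p = 0.000128 and 0.75, adjusted p = 0.000247, log2 scale), Cps1, which makes carbamoyl phosphate, fell (−0.61, adjusted p = 0.00333 and −0.70, adjusted p = 0.00137), and Otc, which joins it to ornithine, was at 0.16, adjusted p = 0.121 and 0.19, adjusted p = 0.071. The glutamate carriers Slc25a18 and Slc25a22, the basic amino acid carrier Slc25a29 and the glycine carrier Slc25a38 were not called, with log2 fold changes of 0.07, 0.22, 0.24 and −0.20 in NT+/+ mice and −0.11, 0.42, −0.05 and −0.23 in NT-/- mice. Slc25a22 was called higher in NT-/- mice by DESeq2 (adjusted p = 0.036) and in edgeR with the block of the titles (adjusted p = 0.0305). It was also called with only the groups compared in the fit (adjusted p = 0.0097) and without some single mice, but not with the block of the file numbers.

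The largest role group carries nucleotides, cofactors, vitamins and glutathione. Of its 11 members, 5 rose and 1 fell in each genotype, and those were the same genes in both. That is 54.5% called, beside 21.6% of all genes in NT+/+ and 25.2% in NT-/- mice. Slc25a36 and Slc25a33 carry pyrimidine nucleotides, which mitochondria need to make their own DNA and RNA. Slc25a36 had 62.7, 136, 87.9, 113 and 107 CPM in NT+/+ ad libitum mice and 138, 196, 129.5, 215 and 139.9 CPM in NT+/+ fasted mice. The values of NT-/- mice were 87.8, 89.8, 102 and 98.01 CPM ad libitum and 149, 241, 237, 229 and 197 CPM fasted. The NT+/+ groups were wide and met at their edges, while the NT-/- groups were apart. Slc25a36 rose 1.62-fold in NT+/+ mice (log2 fold change 0.69, SE 0.18, adjusted p = 0.00866) and 2.23-fold in NT-/- mice (1.16, SE 0.19, adjusted p = 0.000247). Of its windows of 100 bases, 4.48% occur in the pseudogene Gm13217.

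Slc25a33 was much lower than Slc25a36 (1.25 ± 0.154 against 46.1 ± 15.1 TPM in NT+/+ ad libitum mice). It had 2.45, 1.82, 1.85, 1.73 and 2.17 CPM in NT+/+ ad libitum and 3.53, 2.80, 4.73, 2.63 and 4.26 CPM in NT+/+ fasted mice. It had 3.13, 1.89, 2.21 and 2.18 CPM ad libitum and 3.42, 2.95, 3.76, 3.55 and 4.33 CPM fasted in NT-/- mice. The diets were apart in NT+/+ mice and overlapped in NT-/- mice through ad libitum replicate 1. It rose 1.79-fold in NT+/+ mice (log2 fold change 0.84, SE 0.19, adjusted p = 0.00365) and 1.52-fold in NT-/- mice (0.61, SE 0.20, adjusted p = 0.0323). The NT-/- call was lost without NT-/- ad libitum replicate 2, 3 or 4 or NT-/- fasted replicate 3 or 5 (adjusted p = 0.0582 to 0.104), and its exons overlap the antisense gene Gm13068.

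Slc25a42 and Slc25a16 are linked to the supply of coenzyme A, which the matrix needs to activate acyl groups. Slc25a42 was at 22.4, 21.97, 22.1, 23.04 and 19.9 CPM in NT+/+ ad libitum and 34.6, 35.1, 26.5, 33.5 and 30.5 CPM in NT+/+ fasted mice. Among NT-/- mice it was at 27.8, 23.3, 28.8 and 22.2 CPM ad libitum and 30.97, 29.6, 36.03, 35.7 and 27.3 CPM fasted. The diets were apart in NT+/+ mice and overlapped in NT-/- mice. The rise was 1.46-fold in NT+/+ (log2 fold change 0.55, SE 0.10, adjusted p = 0.000539) and 1.25-fold in NT-/- mice (0.32, SE 0.10, adjusted p = 0.0301). The latter call was lost without NT-/- ad libitum replicate 2 or 4 or NT-/- fasted replicate 3 or 4 (adjusted p = 0.0732 to 0.102), and with only the groups compared in the fit (adjusted p = 0.0522).

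Slc25a16 had 26.96, 24.95, 23.5, 22.7 and 23.8 CPM in NT+/+ ad libitum and 33.9, 31.4, 31.5, 28.4 and 33.04 CPM in NT+/+ fasted mice. Its NT-/- values were 24.3, 23.97, 23.98 and 28.9 CPM ad libitum and 36.04, 29.96, 35.4, 34.5 and 37.1 CPM fasted. Fasted mice lay over ad libitum mice of their genotype without overlap. It rose 1.30-fold (log2 fold change 0.38, SE 0.08, adjusted p = 0.00167) and 1.37-fold (0.46, SE 0.08, adjusted p = 0.000462) in NT+/+ and NT-/- mice.

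Slc25a51, the NAD+ carrier, was at 101, 106, 89.8, 96.02 and 97.6 CPM in NT+/+ ad libitum and 118, 136, 128, 115 and 111 CPM in NT+/+ fasted mice. Mice without NT had 109, 97.9, 99.4 and 112 CPM ad libitum and 133, 145, 134, 129.5 and 137 CPM fasted. The diets did not overlap in either genotype, with a gap that was narrow in NT+/+ mice. The rise was 1.24-fold (log2 fold change 0.31, SE 0.07, adjusted p = 0.00244) in NT+/+ and 1.30-fold (0.38, SE 0.07, adjusted p = 0.000667) in NT-/- mice.

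Slc25a26, which imports the methyl donor S-adenosylmethionine, was the member of this group that fell. It was at 8.25, 8.81, 10.7, 7.92 and 10.2 CPM in NT+/+ ad libitum and 6.72, 5.46, 6.69, 6.97 and 7.84 CPM in NT+/+ fasted mice. NT-/- mice had 8.47, 8.17, 8.86 and 9.48 CPM ad libitum and 6.57, 5.90, 6.53, 6.51 and 6.66 CPM fasted. Every fasted mouse was lower than the lowest ad libitum mouse of its genotype. It was 1.36-fold lower in NT+/+ (log2 fold change −0.44, SE 0.11, adjusted p = 0.00755) and 1.36-fold lower in NT-/- mice (−0.44, SE 0.12, adjusted p = 0.0104), and its exons overlap Lrig1 on the opposite strand.

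No other member of the group was called in either genotype. The glutathione carriers Slc25a39 and Slc25a40, with 57.8% coding identity, had log2 fold changes of opposite sign, 0.22 and −0.44 in NT+/+ mice (adjusted p = 0.0777 and 0.0648) and 0.16 and −0.22 in NT-/- mice. With the replicate block both were called in NT+/+ mice, Slc25a39 higher (adjusted p = 0.0203) and Slc25a40 lower (adjusted p = 0.0323). The peroxisomal carrier Slc25a17 and the flavin and folate carrier Slc25a32 had log2 fold changes between 0.02 and 0.15.

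The mitoferrins Slc25a37 and Slc25a28 bring iron into the matrix for heme and iron-sulfur clusters. Slc25a37 rose in NT+/+ mice from 122 ± 14.7 to 153 ± 18.2 CPM (log2 fold change 0.33, SE 0.10, adjusted p = 0.0193), a call lost without NT+/+ ad libitum replicate 1 or NT+/+ fasted replicate 2 or 4 (adjusted p = 0.0505 to 0.0658). In NT-/- mice it was not called (0.22, adjusted p = 0.133). Slc25a28, with 67.5% coding identity to it, had log2 fold changes of 0.29 and 0.24 (adjusted p = 0.0544 and 0.123). With the block of the titles Slc25a28 was called higher in both genotypes (adjusted p = 0.0172 in NT+/+ and 0.0209 in NT-/- mice). With the block of the file numbers it was called in NT+/+ mice only. Of the windows of Slc25a37, 6.11% occur in Gm16867, so its count is less certain.

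Members to which no substrate was assigned here held the second largest rise and the largest fall. Slc25a34 (ENSMUSG00000040740; chr4:141618824-141623821, minus strand) was at 3.93, 5.87, 4.03, 5.89 and 5.51 CPM in NT+/+ ad libitum and 13.7, 13.1, 13.5, 15.4 and 15.01 CPM in NT+/+ fasted mice. The NT-/- values were 6.19, 4.49, 3.95 and 5.97 CPM ad libitum and 14.3, 12.6, 13.1, 13.8 and 10.9 CPM fasted. The lowest fasted mouse, at 10.9 CPM, lay well over the highest ad libitum mouse, at 6.19 CPM. It rose 2.79-fold (log2 fold change 1.48, SE 0.14, adjusted p = 7.35e-07) in NT+/+ mice and 2.499-fold (1.32, SE 0.15, adjusted p = 5.82e-06) in NT-/- mice.

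Slc25a35 (ENSMUSG00000018740; chr11:68968131-68974365, plus strand), the closest relative of Slc25a34 with 60.9% coding identity, fell. It had 28.4, 23.1, 21.3, 22.2 and 20.98 CPM in NT+/+ ad libitum and 17.7, 14.3, 10.03, 13.5 and 15.96 CPM in NT+/+ fasted mice. NT-/- mice had 24.99, 23.3, 23.6 and 19.1 CPM ad libitum and 12.4, 13.3, 8.21, 10.7 and 8.98 CPM fasted. Fasted mice were lower than ad libitum mice without overlap in both genotypes. It was 1.62-fold lower in NT+/+ (log2 fold change −0.70, SE 0.15, adjusted p = 0.00201) and 2.14-fold lower in NT-/- mice (−1.10, SE 0.16, adjusted p = 5.07e-05), and the difference between these effects was −0.40 (unadjusted p = 0.0766, adjusted p = 1). Exons of Slc25a35 overlap Rangrf on the opposite strand, and their reads cannot be told apart without the strand.

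Of the rest of this group, Slc25a53 was called in NT-/- mice only. It averaged 2.36 ± 0.325 CPM ad libitum and 3.65 ± 0.694 CPM fasted in NT-/- mice (log2 fold change 0.62, SE 0.22, adjusted p = 0.0411), with NT+/+ mice at 0.49 (adjusted p = 0.0937). That call was lost without NT-/- ad libitum replicate 2, 3 or 4 or NT-/- fasted replicate 3, 4 or 5 (adjusted p = 0.0718 to 0.107), and with NT+/+ fasted replicate 5 regrouped (adjusted p = 0.0549). Slc25a45 spread widely between mice (37.7 ± 12.7 CPM in NT+/+ ad libitum and 52.7 ± 20.7 CPM in NT+/+ fasted mice) and its log2 fold changes of 0.48 and 0.54 were not called (adjusted p = 0.172 and 0.14). With only the groups compared in the fit, Slc25a45 was called higher in NT-/- mice (adjusted p = 0.0119). Slc25a46, a member of the outer membrane, was at −0.02 and 0.18 and was not called. Slc25a47, known from liver, was at 0.07 in NT+/+ and −0.55 in NT-/- mice and was not called (adjusted p = 0.835 and 0.0537). With the block of the file numbers it was called lower in NT-/- mice (adjusted p = 0.012), as it was by DESeq2 (adjusted p = 0.0468) and with at least 10 counts required in every mouse.

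**Figure D4:**
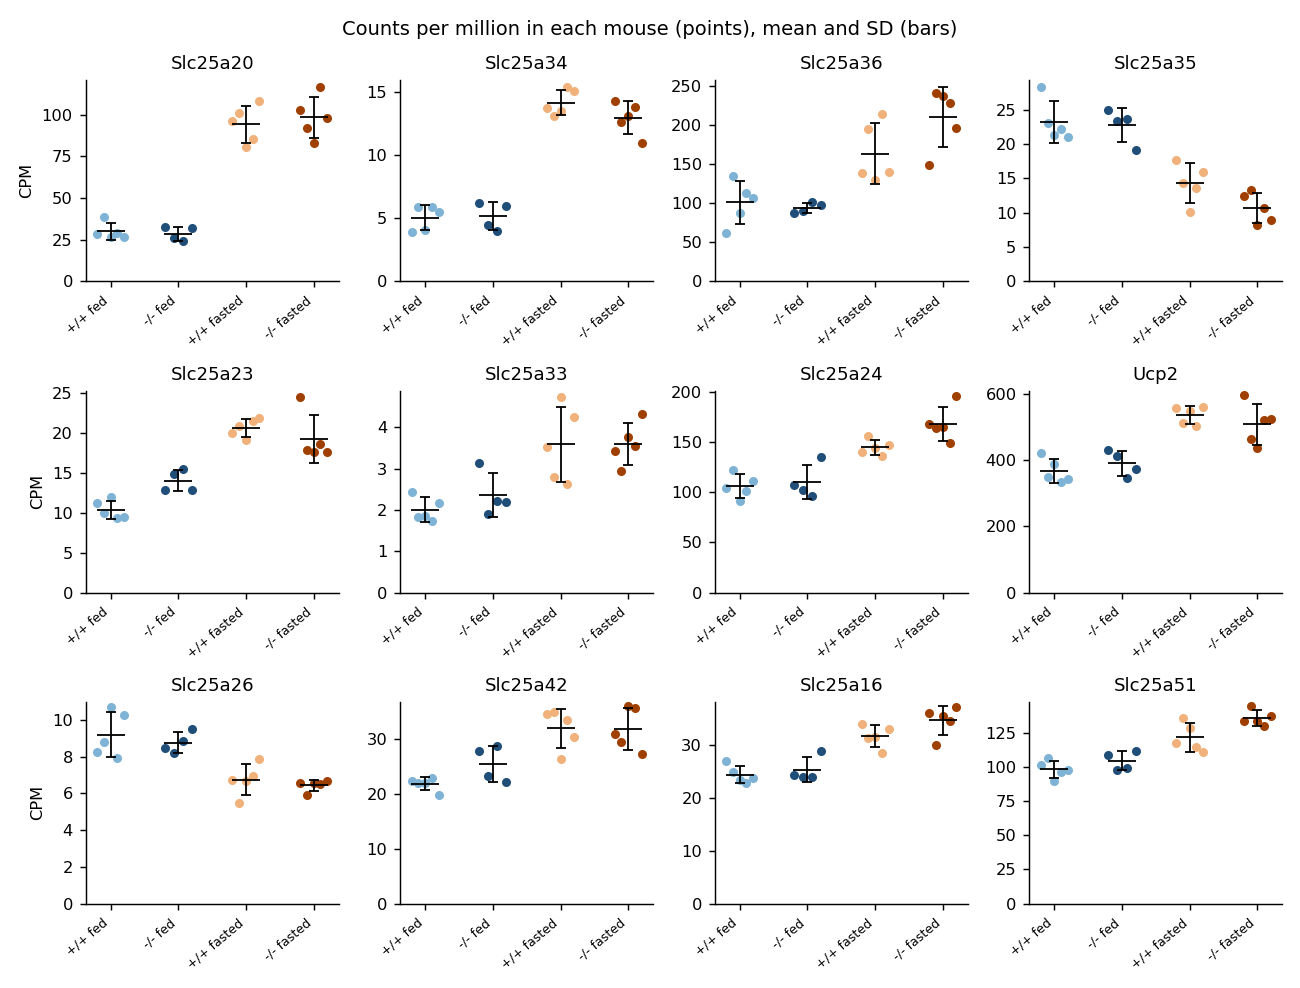
CPM of 12 members in each mouse (points), with the mean and SD of each group (black bars), and each vertical axis starting at 0. The members are those called in both fasting comparisons with the largest mean absolute log2 change. Fasted mice lie apart from ad libitum mice in both genotypes for Slc25a20, where they range from 80.5 to 116 CPM against 24.2 to 38.8 CPM.

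Genes that import the carriers went both ways, and no gene taken as a measure of mitochondrial content rose. Of 13 genes for carrier import and insertion, 1 rose and 2 fell in NT+/+ mice, and 1 rose and 3 fell in NT-/- mice. That is 23.1% and 30.8% called, near the 21.6% and 25.2% of all genes. In NT+/+ mice 5 were called with the replicate block and 1 without NT+/+ fasted replicate 2, and in NT-/- mice 7 were called without NT-/- fasted replicate 1 or with the block of the file numbers. Tomm20, a receptor of the outer membrane, rose (0.57, adjusted p = 7.78e-06 and 0.55, adjusted p = 1.87e-05, log2 scale, NT+/+ then NT-/-). Tomm40, the import pore, fell (−0.42, adjusted p = 0.0139 and −0.57, adjusted p = 0.00239), and the small chaperone Timm8b fell (−0.36, adjusted p = 0.0241 and −0.40, adjusted p = 0.0168). Of 10 genes taken as measures of mitochondrial content, 0 rose and 4 fell in NT+/+ mice, beside 11.2% higher and 10.4% lower over all genes. In NT-/- mice 0 of the 10 rose and 3 fell, beside 12.5% higher and 12.6% lower over all genes. At these shares of all genes, the lack of a rise among 10 genes says little. Without NT+/+ ad libitum replicate 1 or 5 or NT+/+ fasted replicate 2, 3 or 4, 2 were called in NT+/+ mice. Among them the chaperonin Hspd1 (−0.47, adjusted p = 0.00382 and −0.45, adjusted p = 0.00642), the mitochondrial DNA polymerase Polg (−0.28, adjusted p = 0.00933 and −0.44, adjusted p = 0.000379) and the mitochondrial transcription factor Tfam (−0.27, adjusted p = 0.0292 and −0.26, adjusted p = 0.0441) fell in both genotypes. Counts from the mitochondrial chromosome were 3.90% to 5.74% of the total in NT+/+ ad libitum and 3.28% to 4.30% in NT+/+ fasted mice, lower after fasting in 5 of 5 pairs of the same number. In NT-/- mice they were 4.80% to 5.90% ad libitum and 3.27% to 5.48% fasted, lower in 3 of 4 pairs of the same file number. The groups overlapped in both genotypes, and the part of this share in the carrier results was not tested.

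Transport proteins of the mitochondrial membranes that are not SLC25 carriers went both ways. Of 23 such genes, 2 rose and 4 fell in NT+/+ mice, and 5 rose and 4 fell in NT-/- mice (5 called in all without NT-/- ad libitum replicate 3 or NT-/- fasted replicate 5). That is 26.1% and 39.1% called, beside 21.6% and 25.2% of all genes. The pyruvate carrier subunit Mpc2 fell (−0.34, adjusted p = 0.00166 and −0.25, adjusted p = 0.0156, log2 scale), the porphyrin transporter Abcb6 rose (0.40, adjusted p = 0.00344 and 0.36, adjusted p = 0.00786), and the sideroflexin Sfxn3 rose in NT+/+ mice (0.54, adjusted p = 0.00653) and was not called in NT-/- mice (0.30, adjusted p = 0.134). The median log2 fold change of this list was −0.05 in NT+/+ and −0.06 in NT-/- mice, beside 0.24 in each genotype for the SLC25 members tested.

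In ad libitum mice edgeR's quasi-likelihood test called 0 of the 42 members between NT-/- and NT+/+ mice, beside 0.00559% of all genes tested, which is 1 gene, Nts itself. At an unadjusted p under 0.05, 4 members were higher and 0 lower, beside 1.67% of all genes, and DESeq2 called 0 members. The smallest p-values were those of Slc25a23 (log2 fold change 0.43, SE 0.11, unadjusted p = 0.00082), Slc25a4 (0.48, SE 0.17, unadjusted p = 0.0122) and Slc25a42 (0.23, SE 0.10, unadjusted p = 0.0419), each with an adjusted p of 1. Slc25a23 had groups that did not overlap, at 9.29 to 11.9 CPM in NT+/+ and 12.8 to 15.4 CPM in NT-/- mice.

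In fasted mice the same test also called 0 of 42 members between genotypes, beside 0.00559% of all genes. At an unadjusted p under 0.05, 6 members were higher and 1 was lower in NT-/- mice, beside 9.14% of all genes. Slc25a5 had the smallest p (log2 fold change 0.31, SE 0.09, adjusted p = 0.267), followed by Slc25a46 (0.27, SE 0.09, adjusted p = 0.344) and Slc25a15 (0.24, SE 0.08, adjusted p = 0.361). Slc25a46 averaged 42.7 ± 4.94 CPM in NT+/+ fasted and 51.5 ± 3.17 CPM in NT-/- fasted mice, and Slc25a15 217 ± 8.75 and 257 ± 15.3 CPM, both without overlap. Slc25a5 was called by DESeq2 (log2 fold change 0.32, adjusted p = 0.0206), and no other setting tried called a member in this comparison. In the same mice the summed level of the villus genes was 6923 to 14670 CPM in NT+/+ fasted and 12761 to 17224 CPM in NT-/- fasted mice, and its part in the Slc25a5 result was not tested.

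The effect of fasting was also compared between genotypes directly, as the change in NT-/- minus the change in NT+/+ mice. For 0 of 42 members did these effects differ in edgeR's test (0.0% of all genes), and DESeq2 called 0 members. At an unadjusted p under 0.05 there were 3, beside 2.71% of all genes, Slc25a23 (−0.53, unadjusted p = 0.00211), Slc25a4 (−0.62, unadjusted p = 0.0185) and Slc25a47 (−0.62, unadjusted p = 0.0379), each with an adjusted p of 1. Slc25a47 averaged 3.87 ± 0.794 and 4.05 ± 0.581 CPM in NT+/+ ad libitum and fasted mice, and 4.73 ± 1.34 and 3.25 ± 0.623 CPM in NT-/- mice. These 3 differences were below 0, so the log2 fold change of fasting was lower in NT-/- than in NT+/+ mice. The genotype comparisons and this one share their mice with the fasting comparisons.

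**Figure D5:**
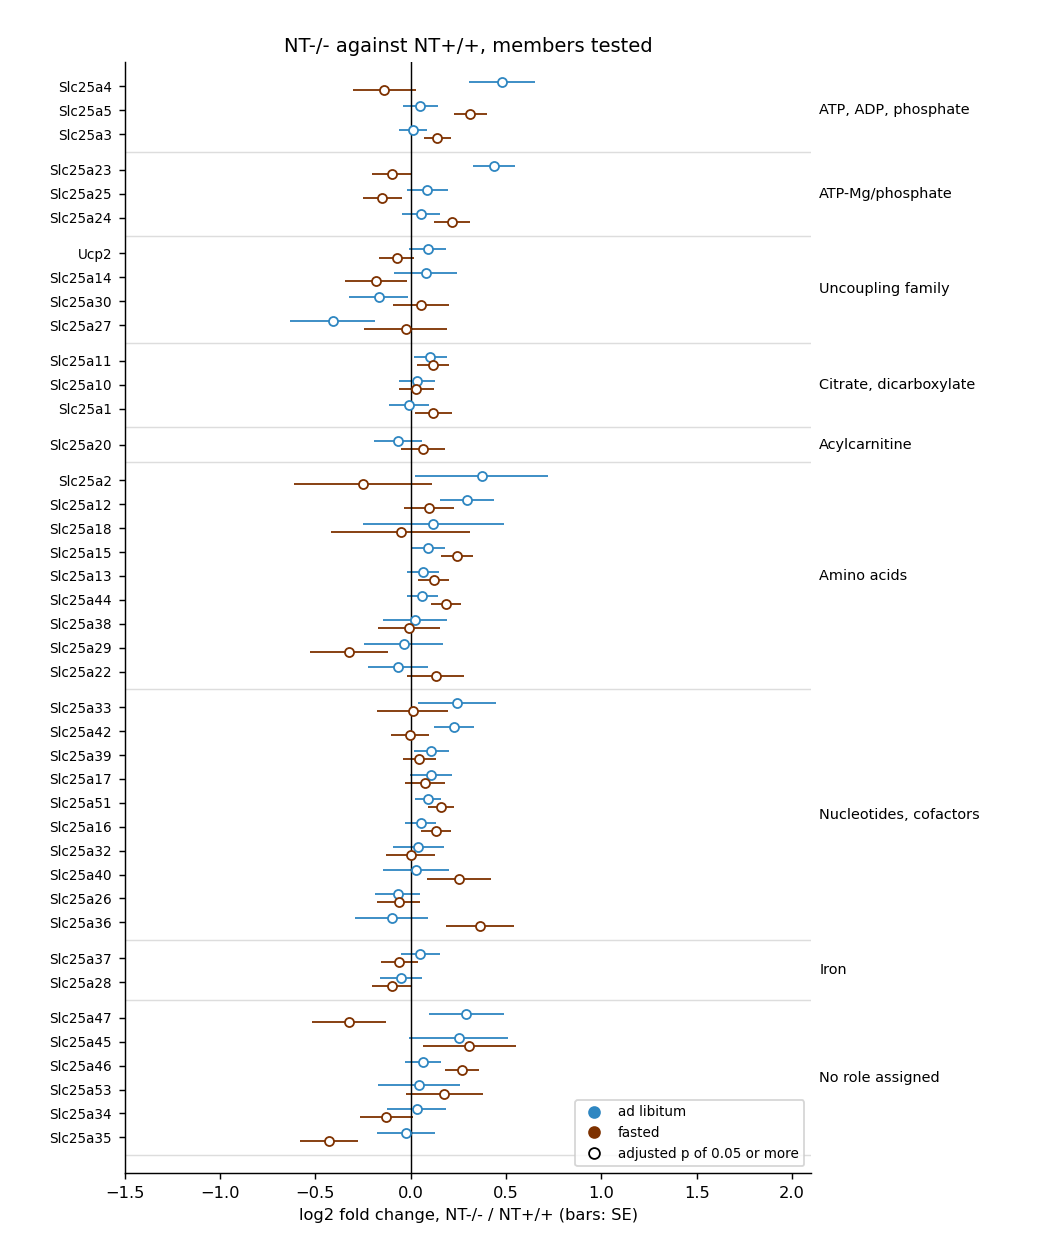
Log2 fold change of NT-/- against NT+/+ mice for the members tested, 1 of the 42 not shown, ad libitum (blue) and fasted (brown), on the same scale as the plot of fasting effects, with SEs as horizontal lines. Open points have an adjusted p of 0.05 or more, and every point is open. The values lie between −0.43 and 0.48.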

How the data were processed

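RNA of crypts from 19 mice, 1 library per mouse, was depleted of ribosomal RNA and sequenced as single reads of 100 bases by the authors, who trimmed them with Trimmomatic 0.39 and aligned them to GRCm38 for quantification with RSEM. The RSEM version and the strand setting are not given in the sources used here. The deposited expected counts are the authors' RSEM estimates per gene, not normalized, and the deposited TPM are the authors' values scaled for gene length and depth.

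Expected counts were rounded to whole numbers and fitted with edgeR 4.0.16 (R 4.3.3, limma 3.58.1) by its quasi-likelihood test with TMM scaling and its default filter on low counts, over all 4 groups (17875 genes tested, 15 residual degrees of freedom, biological coefficient of variation 18.9%). The p-values were adjusted by the Benjamini-Hochberg method over all genes tested, and a gene was called at an adjusted p under 0.05. The SE was taken from the log2 fold change and the square root of its F statistic. CPM used TMM-scaled library sizes, and TPM served only to compare levels between genes. Totals were 9059418 to 35068669 counts per mouse, with a median of 18541770. The code was tested on simulated counts.

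Groups were taken from the sample titles. Each mouse is a replicate, and p-values of the main fit, which has no block, measure the spread between these mice. The family was taken up, and the lists were chosen, with earlier results of these data known, while membership follows gene symbols. The members were named, except 1 tested member whose values are not reported here and which counts in the totals. Values in every mouse were given for the members called in both fasting comparisons, at most the 12 with the largest mean absolute log2 change, and for the most abundant member. Means and tests were given for other members called with an absolute log2 change of at least 0.3 and for the 3 smallest p-values in each genotype comparison, and 3 genes were named per related list. Other values were given as context.

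The replicate numbers of the titles, and those in the file names, which differ for 2 mice, were checked for pairing. By either number, the deviations of 5 of 5 same-numbered pairs correlated over 0.1 between fasted and ad libitum NT+/+ mice (r = 0.165 to 0.499) and between fasted NT-/- and NT+/+ mice (r = 0.124 to 0.453). Between fasted and ad libitum NT-/- mice, 4 of 4 pairs did by the file numbers (r = 0.123 to 0.379) and 2 of 4 by the titles, and between ad libitum genotypes 4 of 4 (r = 0.117 to 0.342) and 2 of 4. The file numbers were thus taken as pairing the mice in these 4 comparisons, and those of the titles in the first 2 named. The main fit does not use this pairing, and the fits with a block are given as alternatives. Of differently numbered pairs from different groups, 17 of 108 by the titles and 12 of 108 by the file numbers also correlated over 0.1. Mice of the same file number had the same sex wherever a sex is given, so a block for this number also holds sex. No source used here says what the numbers stand for. Alternatives were other filters, upper quartile scaling, DESeq2 1.42.0, replicate blocks, sex as a covariate, regrouping the mouse with conflicting labels, only the compared groups in the fit, and each mouse left out in turn. Read sharing was measured as windows of 100 bases of a member's transcripts that also occur in another gene's transcripts.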

Additional observations from a re-analysis of the deposited data

Results flagged for a closer look

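In 5 of the 56 groups of values checked, 1 mouse stood apart from its group by Dixon's test at the 95% level. Chance alone gives about 5%. All 5 were groups of members described mouse by mouse. Slc25a20 was at 38.8 CPM in NT+/+ ad libitum replicate 2, where the nearest mouse had 29.2 CPM. Slc25a23 was at 24.5 CPM in NT-/- fasted replicate 1, against 18.5 CPM in the nearest mouse. Slc25a26 was lowest in NT-/- fasted replicate 2, at 5.90 CPM against 6.51 CPM. Slc25a16 was at 28.9 CPM in NT-/- ad libitum replicate 4, against 24.3 CPM. Slc25a5 was at 819.8 CPM in NT+/+ fasted replicate 3, against 686 CPM in the nearest mouse. The fasting calls of Slc25a20, Slc25a23, Slc25a26 and Slc25a16 held in both genotypes when each of these mice was left out, and Slc25a5 kept its call in NT-/- mice.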

How the results depend on the processing

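No call of a member changed direction under any alternative. The median difference of the fasting effects, which was −0.0167 and not tested, was above 0 in 7 of 27 alternatives. Of the calls of single members, 13 of 17 in NT+/+ and 14 of 20 in NT-/- mice held in all 28 alternatives, and those that were lost are given above with the mice concerned. With no filter on low counts, Slc25a4, Slc25a13 and Slc25a44 lost their call in NT+/+ mice and Slc25a13, Slc25a30, Slc25a33, Slc25a42 and Slc25a53 in NT-/- mice. With sex as a covariate, in a fit without NT-/- fasted replicate 5, whose sex is not given, Slc25a33 and Slc25a53 lost theirs in NT-/- mice, and both were also lost when that mouse alone was left out.

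Members called lower numbered 4 in NT+/+ mice with the replicate block of the titles (2 without it) and 5 in NT-/- mice with at least 10 counts in every mouse or with the replicate block of the file numbers (3 otherwise). DESeq2 called 1 member higher in fasted NT-/- against NT+/+ mice. With the replicate block of either number, the calls in NT+/+ mice were 5 on the import list, 3 on the shuttle list and 6 on the citrate list. With the block of the file numbers, they were 7 on the import list and 5 on the ornithine list in NT-/- mice. The shuttle list in NT+/+ mice gave 2 under the same stricter filter, upper quartile scaling, DESeq2 or with only the compared groups in the fit. With no filter, other transport proteins gave 5 calls in NT-/- mice and mitochondrial content genes gave 2 in NT+/+ mice. In the comparisons where the title numbers did not pair the mice, the title block gave 19 members higher and 4 lower for fasting in NT-/- mice and 0 called between ad libitum genotypes. The causes of these shifts were not tested.

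With each mouse left out in turn, members called higher ran from 12 to 16 and lower from 2 to 3 in NT+/+ mice, and from 13 to 19 and 3 to 5 in NT-/- mice. The median difference of the fasting effects ran from −0.0395 to 0.0574, the latter without NT-/- ad libitum replicate 1. Calls in NT+/+ and NT-/- mice ran from 1 to 4 and 3 to 7 for the import list, 4 to 7 and 5 to 9 for other transport, 1 to 2 and 2 to 2 for shuttles, 1 to 4 and 3 to 4 for citrate, 2 to 2 and 3 to 4 for ornithine, 4 to 5 in both for carnitine, and 2 to 4 in both for mitochondrial content. Depth limits the 8 untested members, and intervals for low members are wide.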
